A study of Mus musculus with 3 samples.

Results

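The Hox genes encode homeodomain transcription factors that specify position along the body axis. In the mouse they stand in 4 clusters, HoxA to HoxD. The 39 protein-coding genes whose symbols are Hoxa, Hoxb, Hoxc or Hoxd followed by a number were taken from 21627 protein-coding RefSeq genes on chromosomes 1 to 19 and X. HoxA holds 11 of them, HoxB 10, HoxC 9 and HoxD 9. They were read against the genomic binding of TBX5, a T-box transcription factor of heart and forelimb, mapped by ChIP-seq, in which DNA bound by a protein is recovered with an antibody and sequenced. The chromatin came from E14.5 hearts of CD-1 mice, an outbred stock, with no genetic change or treatment named. An anti-TBX5 antibody was used on 2 replicates and 1 input sample was not precipitated. No sorting of heart cells is named, so the cell type behind a peak is not resolved, and RNA was not measured.

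Within a cluster the genes lie in the order in which they are switched on along the body axis, with paralog group 1 at the anterior end and group 13 at the posterior end. Retinoic acid activates the anterior groups, Polycomb proteins keep unused genes silent under the histone mark H3K27me3, and HOX proteins bind DNA with the TALE cofactors MEIS and PBX. In the heart, anterior genes such as Hoxb1 are known from progenitors that build the outflow tract and the venous pole. In the forelimb field HOX proteins act on the Tbx5 gene itself, so that in that setting Tbx5 is the target and Hox the regulator. The peak list addresses the other direction, namely where TBX5 protein sat relative to the Hox genes.

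None of the 39 Hox genes had a TBX5 summit, the position of highest signal in a peak, along its body extended by 10 kb on both sides (0 of 39). Over all protein-coding genes the share with a summit in that window was 29.9%, and it was 30.0% where any base of a peak counted, which again gave no Hox gene. In a list of heart genes, chosen with earlier results of these data known, 8 of 8 had one (Tnnt2, Myh6, Myl7, Actc1, Ttn, Nppa, Gja5 and Tbx5). The 39 genes are not 39 independent loci. Their extended bodies merge into stretches of 517 kb in all, where 3.67 summits would lie at the mean density of all extended protein-coding genes (7.10 per Mb) and 2.46 at the density over whole chromosomes (4.76 per Mb).

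Hox genes are also short, with bodies from 1.78 kb (Hoxc12) to 44.0 kb (Hoxa3) and a median of 3.74 kb against 17.4 kb for other genes. Short genes were bound less often. Of the 13861 other genes with a body in the Hox range, 25.6% had a summit within 10 kb. Of genes from 2 to 5 kb long, which include 23 Hox genes, 18.8% did. Of those from 5 to 10 kb, which include 9, 22.6% did. The absence was therefore set against both levels, and no test over samples could be made because the peaks came from 1 call on the pooled replicates.

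The letters before 3 Hox starts are printed first, with the letters before the start of Lnpk, a gene beside HoxD. Hoxd9 and Hoxa2 are shown because they hold the T-box core explained below, to which Hoxb1 has no match. The Lnpk summit itself lay 25 bp after the start, outside the printed letters, and its peak ran into them. Each stretch is the 250 bases before a RefSeq start (GRCm38.p6), read 5′ to 3′ on the gene's own strand. T-box proteins bind a short element with the core GGTGTG, and capitals mark that core on either strand in Hoxa2 and Lnpk, where it reads CACACC. In Hoxd9 they mark the longer form AGGTGTGA, which contains the core. In Hoxb1 they mark TGATNNAT, a form of the composite site on which HOX and PBX proteins bind side by side. Hoxa2 also has a match to TGATNNAT, left unmarked, on the opposite strand from 111 bases before the start. Hoxb1 is shown because it has the start that the authors assigned to a summit 34443 bp away.
Hoxd9, chr2:74697513-74697762, plus strand: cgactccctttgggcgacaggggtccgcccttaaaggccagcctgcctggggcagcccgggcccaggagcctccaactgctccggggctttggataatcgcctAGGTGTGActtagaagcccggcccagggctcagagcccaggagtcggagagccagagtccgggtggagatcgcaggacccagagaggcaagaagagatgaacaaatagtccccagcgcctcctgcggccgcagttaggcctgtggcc
Hoxa2, chr6:52164832-52165081, minus strand: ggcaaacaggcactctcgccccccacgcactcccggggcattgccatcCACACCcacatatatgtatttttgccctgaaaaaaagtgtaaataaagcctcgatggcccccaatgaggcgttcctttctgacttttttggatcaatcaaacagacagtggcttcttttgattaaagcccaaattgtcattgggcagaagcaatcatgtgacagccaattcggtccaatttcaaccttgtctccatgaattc
Hoxb1, chr11:96365508-96365757, plus strand: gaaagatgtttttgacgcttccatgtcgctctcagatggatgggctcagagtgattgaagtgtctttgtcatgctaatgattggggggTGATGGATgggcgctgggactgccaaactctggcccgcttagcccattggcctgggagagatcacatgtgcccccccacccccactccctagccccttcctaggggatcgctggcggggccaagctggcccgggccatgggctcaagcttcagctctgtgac
Lnpk, chr2:74578949-74579198, minus strand: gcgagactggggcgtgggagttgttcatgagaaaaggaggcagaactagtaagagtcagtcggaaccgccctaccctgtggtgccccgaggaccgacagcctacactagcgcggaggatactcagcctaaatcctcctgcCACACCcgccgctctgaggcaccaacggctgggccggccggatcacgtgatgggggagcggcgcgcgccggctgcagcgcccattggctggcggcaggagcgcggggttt
The AGGTGTGA match of Hoxd9 begins 147 bases before the start, and the nearest summit lay 118840 bp from that gene. The CACACC match of Hoxa2 begins 202 bases before its start, with the nearest summit 229142 bp from the gene. A match is a string of letters and not a binding site.

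The RefSeq promoter table, which gives 250 bases before and 50 after a start, held 24 windows for 22 of the 39 Hox genes. None of the 24 contained a summit, against 1198 of 21020 windows of other protein-coding genes (5.70%). Each Hox window lies inside the extended body of its gene, so this repeats the result above and adds nothing to it. GGTGTG occurred on either strand in 2 of the 24 Hox windows (8.33%, Hoxd9 and Hoxa2), in 18.3% of the other windows and in 22.6% of the windows with a summit. AGGTGTGA occurred in 1 Hox window (4.17%) and in 1.16% of the others. The composite form TGATTNAT stood in 2 Hox windows (Hoxa2 and the downstream of 2 starts of Hoxd11) and in 2.77% of the others. The wider form TGATNNAT, added after the values were seen, stood in 4 Hox windows (16.7%, with Hoxb1 and Hoxb8) and in 7.35% of the others. The median GC content was 57.7% in Hox windows, from 39.7% (Hoxd4) to 81.0% (Hoxa13), 56.7% in the others and 65.0% in windows with a summit. The ratio of observed to expected CpG pairs had medians of 0.626, 0.574 and 0.856 in these groups. The Hox starts with a window were thus near the average of all starts in base composition, and below the starts that carried summits. They came mostly from HoxA and HoxD, with only Hoxb1, Hoxb4 and Hoxb8 from HoxB and Hoxc4 from HoxC.

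The distance from each gene body to its nearest summit gives a finer measure than the call. Over the 39 Hox genes its median was 165 kb, from 18.3 kb (Hoxb13) to 291 kb (Hoxa10), against a median of 50.2 kb over the other protein-coding genes. Of the other genes 26.6% lay farther from a summit than the Hox median. More than 200 kb lay between gene and summit for 15 Hox genes (38.5%) and for 23.1% of the others. Genes of 1 cluster share the same few summits, so neighbouring distances repeat each other.

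**Figure D1:**
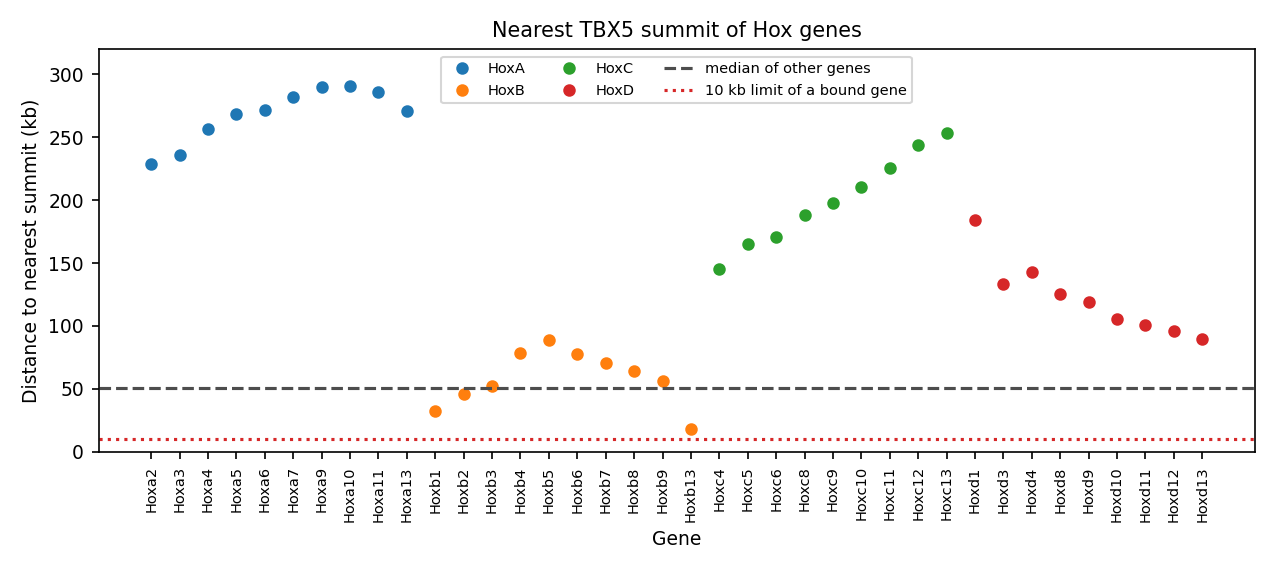
Distance from each Hox gene body to the nearest TBX5 summit in kb, 1 point per gene shown, ordered by cluster and paralog group, with the median of the other protein-coding genes (dashed, 50.2 kb) and the 10 kb limit of a bound gene (dotted). No point lies under 10 kb, and only Hoxb1, Hoxb2 and Hoxb13 lie under 50 kb.

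HoxA, on chromosome 6, lay farthest from any summit. All 11 genes were over 200 kb away, with a median of 271 kb. Hoxa2, which patterns the second pharyngeal arch, stood at 229142 bp. Hoxa3, needed for thymus and parathyroid, stood at 235784 bp, Hoxa5, which acts in the lung, at 268479 bp and Hoxa9, a factor of blood progenitors, at 289822 bp. Hoxa10, Hoxa11 and Hoxa13, of the reproductive tract and limb, were nearer to a summit on the other side, at 290670, 285714 and 270644 bp. The cluster thus sat between 2 summits that were 598 kb apart, with none within 200 kb.

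HoxB (11: 96194316 to 96368254 on mm10) was the cluster nearest to TBX5 peaks, with distances from 18.3 to 88.6 kb and a median of 60.5 kb. Hoxb13, a posterior gene known from prostate and tail, stood at 18276 bp. It is separated from the rest of the cluster, and the summit lay in the interval between Hoxb13 and Hoxb9. At the anterior end Hoxb1, a gene of hindbrain and heart progenitors, stood 31947 bp from a summit beyond the cluster, Hoxb2 46181 bp and Hoxb3 52271 bp. The middle genes were farther from both, with Hoxb4, a regulator of blood stem cells, at 78563 bp and Hoxb5 at 88626 bp. Hoxb6, Hoxb7, Hoxb8 and Hoxb9 followed at 77928, 70718, 64515 and 56444 bp from the posterior summit.

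HoxC (15: 102921131 to 103036856) has no genes of the anterior groups 1 to 3. Its distances ran in 1 direction, from 145466 bp at Hoxc4 to 253508 bp at Hoxc13, a hair and nail regulator. Between them lay Hoxc5 (164893 bp), Hoxc6 (170440 bp), Hoxc8 (188047 bp), Hoxc9 (197878 bp), Hoxc10 (210424 bp), Hoxc11 (225621 bp) and Hoxc12 (243713 bp). The order follows from a single summit, on the Hoxc4 side. On the Hoxc13 side the next summit was 402475 bp away.

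HoxD (2: 74668225 to 74765142) showed the opposite order, with posterior genes nearest. Hoxd13 and Hoxd12, which shape the digits, stood at 89302 and 96090 bp. Hoxd11 (100635 bp), Hoxd10 (105350 bp), Hoxd9 (118840 bp) and Hoxd8 (125692 bp) followed, and the anterior genes Hoxd3 (133070 bp), Hoxd4 (143055 bp) and Hoxd1 (184057 bp) were farthest. The nearest summit was at the promoter of Lnpk in every case. Over paralog groups no steady order remained, since the median was 133 kb in group 3, 170 kb in group 6, 126 kb in group 8, 226 kb in group 11 and 171 kb in group 13.

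Wider windows were used to see when Hox genes begin to count as bound. With the gene body alone, or extended by 2 kb, the count stayed at 0 of 39, against 19.2% and 24.0% of all genes. These windows lie inside the main one, so no other count was possible. At 50 kb Hoxb1, Hoxb2 and Hoxb13 had a summit (3 of 39, 7.69%), against 49.8% of all genes and 49.7% of those in the Hox length range. At 100 kb the count was 12 (30.8%, all 10 HoxB genes with Hoxd12 and Hoxd13) against 63.7%. At 200 kb it was 24 (61.5%) against 76.9%. By the nearest gene of each summit, 2 Hox genes were named, Hoxb1 and Hoxb13 (5.13%), against 28.1% of all genes.

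**Figure D2:**
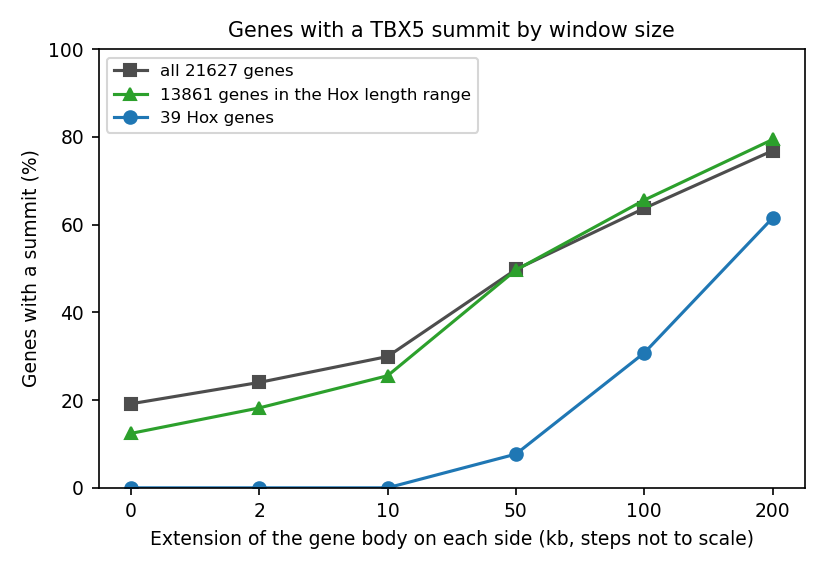
Share of genes with at least 1 TBX5 summit (%) against the extension of the gene body on each side (kb), for the 39 Hox genes, all 21627 protein-coding genes and the 13861 other genes with bodies in the Hox length range. The Hox share is 0 up to 10 kb, 7.69% at 50 kb and 61.5% at 200 kb, and lies under the other lines throughout.

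All summits within 200 kb of a cluster were then mapped. There were 6, with 0 at HoxA, 3 at HoxB, 2 at HoxC and 1 at HoxD, and a single one lay between the outer genes of a cluster. The 4 windows span 2092 kb, so the density was 2.87 summits per Mb against 4.76 per Mb over all chromosomes. Many regions of this size held as few. Of 4986 windows of 523 kb laid end to end along the chromosomes, 35.0% held no summit, 62.9% held at most 2 and the median was 1. The summit-free stretches around HoxA, HoxC (664 kb) and HoxD (449 kb) were long beside the median spacing of 64.5 kb. Still, 51.9%, 48.7% and 59.7% of the sequence between summits lay in stretches at least as long as these.

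**Figure D3:**
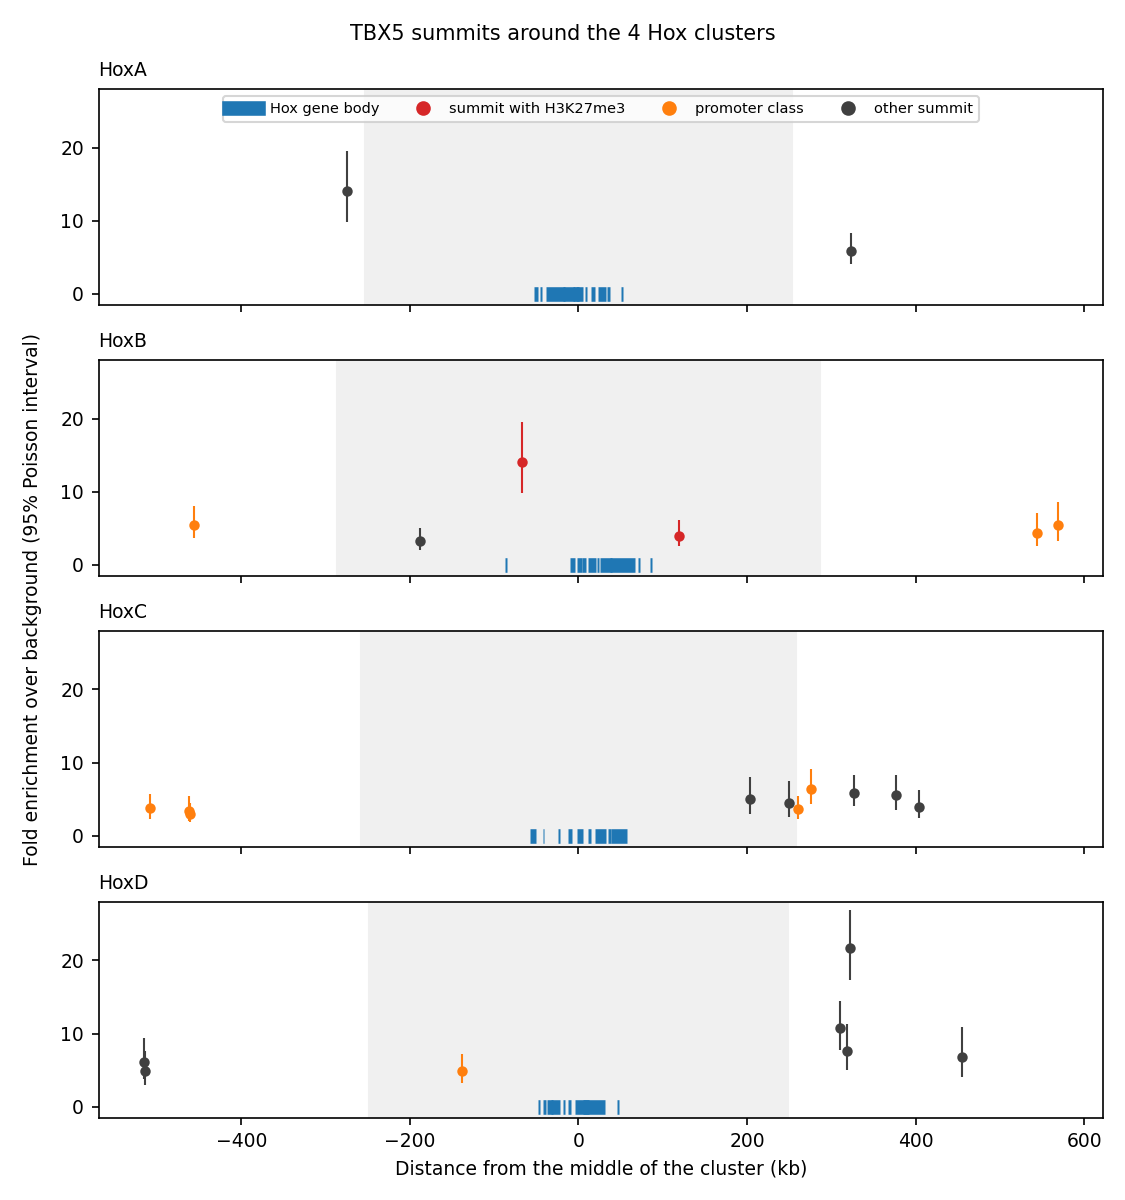
Fold enrichment of each TBX5 summit within 500 kb of a Hox cluster, with the 95% Poisson interval of its fragment count, against the distance from the middle of the cluster in kb. Blue bars are Hox gene bodies and grey the cluster with 200 kb on each side, in which 6 summits lie. Red points carry H3K27me3 (2, both at HoxB) and orange points are of the promoter class.

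The strongest of the 6 lay inside HoxB at chr11:96214767-96215043, between Hoxb13 and Hoxb9. Its fold enrichment over the local background was 14.1 (95% Poisson interval 9.89 to 19.5), from 34 pooled fragments at the summit over a background of 1.48. Only 8.76% of all 12436 peaks had a higher fold, and the median of all was 5.67. The peak overlapped H3K27me3 and none of the other histone marks, so that the authors classed it as repressed. The authors measured its distance, 11432 bp, to a start that matches Gm11538, a long non-coding RNA gene of this interval, whose body ended 9406 bp from the summit.

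The second HoxB peak lay beyond Hoxb1 at chr11:96400076-96400259. It was weak, 4.01-fold (2.52 to 6.09) from 20 fragments, and 83.9% of all peaks had a higher fold. It overlapped H3K27me3 and H3K4me1, a mark of enhancers, and was classed as repressed too. Its assigned start, 34443 bp away, is that of Hoxb1. The third, at chr11:96093041-96093235, lay 101153 bp outside Hoxb13 and 5753 bp from Calcoco2, an autophagy receptor gene, at 3.31-fold (2.10 to 4.98). It carried H3K4me1, H3K9ac and H3K27ac and was classed as active.

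Both HoxC summits belonged by position to Cbx5, which encodes heterochromatin protein HP1 alpha. The first, chr15:103182262-103182452, lay 145466 bp from Hoxc4 and 9224 bp from Cbx5, at 5.08-fold (3.03 to 8.06), and was classed as poised. The second, chr15:103229017-103229251, lay in the body of Cbx5, 192260 bp from Hoxc4, at 4.49-fold (2.54 to 7.45), and was classed as active. Just outside the window, at 203084 bp, stood a 3.63-fold peak (2.31 to 5.45) at a promoter shared by Cbx5 and Hnrnpa1.

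The HoxD summit, in the peak chr2:74578793-74579071, was 25 bp from the start of Lnpk, a gene for an endoplasmic reticulum protein, whose upstream letters are printed above. It had 4.95-fold enrichment (3.30 to 7.17) from 26 fragments. The peak carried H3K4me3, H3K9ac and H3K27ac, was classed as an active promoter and was the only 1 of the 6 to overlap a TBX3 region. Evx2, a homeobox gene 6705 bp from the cluster, had its nearest summit 74066 bp away.

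Over the 6 summits the median fold was 4.72 (3.31 to 14.1), and 1 passed a −log10 q of 10, the peak inside HoxB. H3K27me3 overlapped 2 of 6, against 203 of all peaks (1.63%). TBX3 regions overlapped 1 of 6, against 27.03%, and 1 of 6 was in the promoter class, against 24.6%. With 6 summits at 3 loci these shares are descriptions. Among the 203 peaks with H3K27me3, whose median fold was 5.75, the summit inside HoxB ranked 27 and that beyond Hoxb1 173. From which tissue and stage the mark regions come was not stated in the table.

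A group of stronger peaks stood farther out on the Hoxd1 side, in a gene-poor region beyond Mtx2, and was singled out after its values were seen. A summit of 10.7-fold (7.73 to 14.499) lay 262354 bp from Hoxd1, the next of 7.69-fold (4.99 to 11.4) at 269750 bp and the last of 21.7-fold (17.3 to 26.9) at 274162 bp. This peak rested on 82 fragments, carried H3K27ac and was exceeded by 3.33% of all peaks, while the other two were classed as poised. It lay 162556 bp from Mtx2, the nearest protein-coding gene. On the HoxA side the nearest summit was as strong as that inside HoxB, 14.1-fold (9.89 to 19.5), with the same 34 fragments and background. It lay in the body of Skap2, more than 200 kb outside the cluster, and overlapped none of the marks.

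Genes next to the clusters were read the same way. Of 16 other protein-coding genes within 200 kb, 4 had a summit in the 10 kb window (25.0%, against 29.9% of all genes), namely Skap2, Calcoco2, Cbx5 and Lnpk. Within 500 kb it was 21 of 47 (44.7%, against 29.9%), of which 14 had a summit of the promoter class, a share not computed over all genes. HoxC alone gave 14 bound genes of 23. Neighbouring genes there count the same summits, such as Map3k12, Tarbp2, Npff and Atf7. The even-skipped homeobox genes Evx1 and Evx2, which flank HoxA and HoxD, had none, with the nearest summit 213135 bp from Evx1.

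The clusters also hold 32 RefSeq genes that do not code for protein, and 1 of them had a summit within 10 kb, Gm11538, against 13.4% of 27923 such genes on all chromosomes. For the long non-coding class it was 1 of 25 against 20.4%. Among the long non-coding genes without one were Hotair in HoxC (234376 bp), Hotairm1 in HoxA (225249 bp) and Haglr in HoxD (169499 bp). The clusters further encode microRNAs that share seeds across clusters and target Hox transcripts. Their mature 5′ arms are printed with the seed, bases 2 to 8, in capitals (RefSeq, GRCm38.p6), because they recur between clusters with the same seed.
miR-10a-5p (HoxB): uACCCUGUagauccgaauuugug
miR-10b-5p (HoxD): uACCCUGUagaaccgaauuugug
miR-196a-5p (HoxB and HoxC): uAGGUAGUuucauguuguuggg
miR-196b-5p (HoxA): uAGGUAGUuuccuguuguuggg
None of the 6 microRNA genes in the clusters lay within 10 kb of a summit, against 18.2% of 1228 microRNA genes. Mir196a-1 was nearest at 50278 bp and Mir10a stood at 82927 bp, both in HoxB. Mir10b in HoxD stood at 147147 bp, Mir196a-2 in HoxC at 208888 bp and Mir196b in HoxA at 296806 bp.

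Genes that act with or upstream of Hox were examined in 6 lists, of which 28 of 63 genes (44.4%) had a summit within 10 kb, against 29.9% of all genes. Rxrb (retinoic acid) and Ring1 (Polycomb), named here for this reason, were both counted with the same highest peak, 4.67-fold (2.87 to 7.24). The nearest summit lay in the body of Rxrb and 3213 bp from Ring1. The TALE cofactors, which bind DNA with HOX proteins, had 7 of 9 (77.8%), and 3 of 9 (33.3%, against 13.8% of all genes) with peaks of −log10 q of at least 10. Meis2 held 6 summits and the strongest peak, 38.3-fold (31.5 to 46.3), and Meis1 held 7 with at most 7.81-fold (5.31 to 11.1). The 7.81-fold peak counted for Pbx2 lay 6327 bp from that gene and 166 bp from a start that cannot be its own. Meis3 and Pbx4 had none. The bodies of this list are long, with a median of 139 kb, and of all genes over 100 kb long 62.2% had a summit.

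For retinoic acid synthesis, breakdown and reception 7 of 16 genes had a summit (43.8%, against 29.9% of all genes). The count was 2 (12.5%, against 13.8%) with peaks of −log10 q of at least 10 and 3 (18.8%, against 18.6%) with fold of at least 5. The bound genes were led by the receptor genes Rxrg (11.2-fold, 7.87 to 15.6), Rarb (7.84-fold, 5.34 to 11.1) and Rara (5.02-fold, 3.23 to 7.48). The synthesis enzymes Aldh1a1, Aldh1a2 and Aldh1a3 had none, with the nearest summit 25230 bp from Aldh1a2. Members of both kinds went the other way, and are named after their values were seen. Rdh10, also a synthesis enzyme, was bound (4.49-fold, 2.94 to 6.59), and the receptor gene Rarg was not (45212 bp). The peak of Cyp26b1, which degrades retinoic acid, was named after its value was seen. It was 3.25-fold (1.94 to 5.15), lay 499 bp from a start and carried H3K27me3.

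Polycomb genes had 6 of 17 bound (35.3%, against 29.9% of all genes). Under the same limits on q and fold they had 2 (11.8%, against 13.8%) and 1 (5.88%, against 18.6%). The highest peaks were at Phc2 (13.4-fold, 9.77 to 18.1), Bmi1 (4.98-fold, 3.37 to 7.12) and Cbx6 (4.88-fold, 3.30 to 6.98), and Cbx2 and Cbx7 were among those without a summit. The opposing Trithorax group, which keeps Hox genes active, had 5 of 9 bound (55.6%, against 29.9%). Under those limits on q and fold it had 3 (33.3%, against 13.8%) and 4 (44.4%, against 18.6%). With the gene body alone it had 1 of 9 (11.1%, against 19.2%). Rbbp5 (6.90-fold, 4.18 to 10.8), Hcfc1 (5.37-fold, 3.04 to 8.91) and Wdr5 (5.35-fold, 3.59 to 7.69) led the group, and Ash2l, Dpy30 and Men1 had none. The peak counted for Wdr5 lay 3757 bp outside that gene and 25145 bp from its assigned start. Of 4 other regulators 3 were bound (75.0%, against 29.9% of all genes). Among them were Gdf11 (5.22-fold, 3.32 to 7.85) and Ctcf (3.18-fold, 2.10 to 4.64), and Egr2 was not bound. With −log10 q of at least 10 none of the 4 was bound, against 13.8% of all genes. A list of 4 genes is too short to set against these shares. The ParaHox genes and the even-skipped genes, the nearest relatives of Hox, had 0 of 8 bound (against 29.9% of all genes). Cdx1 (55418 bp), Cdx2 (152835 bp) and Cdx4 (233318 bp) were among them, and the median distance was 142 kb. The 8 genes had a median body of 6.05 kb, and of all genes from 5 to 10 kb long 22.6% had a summit. Evx1 and Evx2 lie 52618 bp from HoxA and 6705 bp from HoxD, so they are not loci separate from Hox. Gsx1, Pdx1 and Cdx2 stand together on chromosome 5, so the 8 genes are not 8 independent loci.

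Other developmental transcription factor families give a scale for this. Of 63 Fox and Sox genes, also short with a median body of 4.80 kb, 17 had a summit (26.98%), and the median distance was 66.5 kb. Of 13 T-box genes 5 had one (38.5%) and of the 7 Meis and Pbx genes 5 (71.4%). The difference between these shares and the Hox share was not tested.

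**Figure D4:**
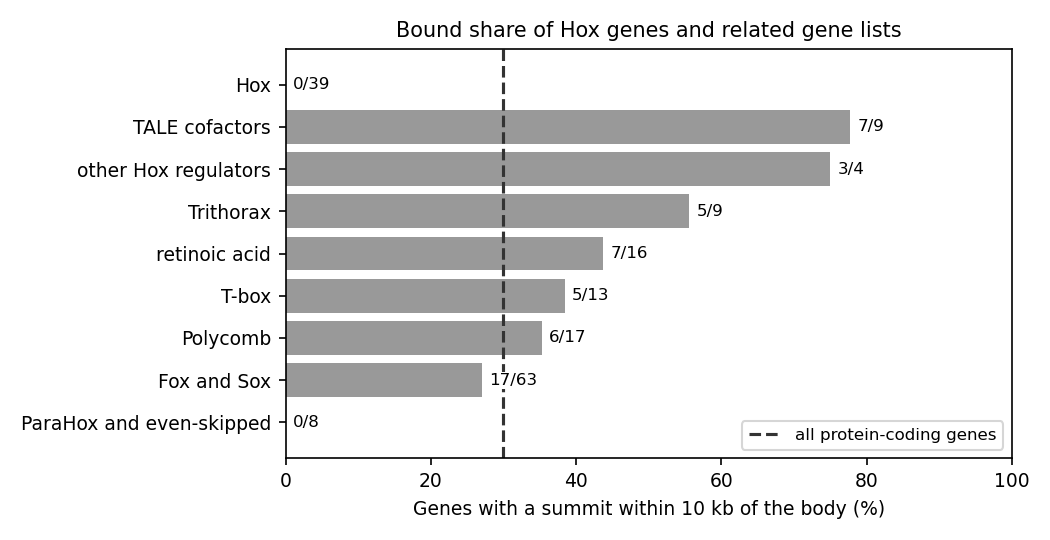
Share of genes with a TBX5 summit within 10 kb of the body (%) for Hox and 8 related lists, with bound and listed genes beside each bar and all protein-coding genes as the dashed line (29.9%). Hox (0 of 39) and the ParaHox and even-skipped genes (0 of 8) have no bar.

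A missing summit means that the pooled call gave no peak there. The list held no peak with fewer than 9 fragments at the summit. At the lowest background, 1.48 fragments, this came to 4.03-fold. Where the background was higher, called peaks reached down to 2.11-fold, so the lowest fold in the list differed with the local background. Binding under these levels was not detectable at this depth.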

How the data were processed

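TBX5 ChIP-seq was done on 2 replicates of embryonic hearts with 1 input sample, from fragments of 200 to 650 bp sequenced from 1 end for 50 bases, per the labels. MACS2, Bowtie2, ChIPseeker, SAMtools and mm10 are named per the submitters' processing notes, with no version. The authors called 1 peak list on the pooled samples and deposited it in 3 files. No value per replicate and no read depth stands in them, so no comparison over samples or between groups could be made. The fold enrichment is the authors' ratio of pooled ChIP signal over local background at the summit. The −log10 p and −log10 q, and the score derived from q, are the authors' values for each peak. Histone mark and TBX3 overlaps and classes come from the authors' deposited table. H3K4me1, H3K4me3 and H3K27ac each have a pair of region files, and overlap with either was taken as the mark.

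The summit fragment count was solved from fold, (count + 1)/(background + 1), and −log10 p as an upper Poisson tail (largest misfit 0.000242). On peaks simulated with the same formulas 100% were recovered, which checks the solving and not whether the authors' values follow those formulas. Intervals are exact 95% Poisson intervals with the background fixed, and cover counting error only. Gene bodies are RefSeq (GRCm38.p6, the assembly of mm10), and all 63 pathway entries matched. A gene was called bound when its body, extended by 10 kb each way, held a summit. Positions are 1-based. Members and lists were chosen with earlier results of these data known. Genes named are all Hox genes, the nearest genes of summits within 200 kb, and per list the 3 bound genes of highest fold and the first 3 unbound by alphabet, except where said. The values of a few such genes are not reported here. Alternatives changed the window, the peak threshold, summit against any base, and the nearest gene. Tables were handled in pandas 2.3.3 and numpy 2.4.6 under Python 3.11.15, Poisson tails and intervals used scipy 1.17.1, and plots matplotlib 3.10.9.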

Additional observations from a re-analysis of the deposited data

How the results depend on the processing

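No Hox gene was bound with the gene body alone, with 2 kb, with peaks of −log10 q of at least 10 (13.8% of all genes) or fold of at least 5 (18.6%), or by any base of a peak (30.0%). With the main count at 0, a smaller window or a subset of the peaks could only give 0 again. The count was 3 at 50 kb, 2 by the nearest gene and, in windows chosen after seeing the data, 12 at 100 kb and 24 at 200 kb. The 28 bound pathway genes fell to 10 (15.9%, against 13.8% of all genes) with −log10 q of at least 10 and to 13 (20.6%, against 18.6%) with fold of at least 5. The 6 summits near clusters became 3 within 100 kb, 25 within 500 kb and 1 with −log10 q of at least 10. With that single summit the median fold was 14.1, 1 carried H3K27me3 and 0 overlapped TBX3 regions, and within 500 kb 5 of 25 overlapped TBX3 regions. Starting HoxB at Hoxb9, also chosen after seeing the data, left 6 summits. The longer T-box motif left 1 Hox promoter. The settings use fewer peaks, other windows or longer letters, and why each count moved was not tested. Leaving out a replicate was not run, because the peaks were called on pooled samples. No paired analysis was possible because the files carry no value per replicate and the input has no number. Depth per sample is unknown.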

Other observations

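Several gene families lie beside more than 1 Hox cluster, as copies of the same ancestral neighbourhood. A list of 21 such genes, drawn up after the summits had been seen, had 13 with a summit within 10 kb (61.9%, against 29.9% of all protein-coding genes). As the list was chosen with the summits known, nothing is read from that share. Of the adaptor genes Skap1 (beside HoxB) and Skap2 (beside HoxA) only Skap2 had one, and Calcoco2 (beside HoxB) had one while Calcoco1 (beside HoxC) did not. The basic leucine zipper genes had peaks at Nfe2 (6.40-fold, 4.33 to 9.15), Nfe2l1 (4.37-fold, 2.57 to 7.04) and Nfe2l2 (8.83-fold, 6.34 to 12.0), whereas Nfe2l3 stood 11261 bp from a summit. The splicing factor genes Hnrnpa1, Hnrnpa2b1 and Hnrnpa3 had summits within 10 kb beside 3 clusters, and so had both coatomer genes, Copz1 and Copz2. Of the ATP synthase genes Atp5g3 had a 3.91-fold peak (2.58 to 5.70), and Atp5g1 and Atp5g2 had none. Some peaks count for a pair of genes, such as that of Nfe2 and Hnrnpa1 and that of Cbx3 and Hnrnpa2b1. These genes lie up to 910371 bp from a cluster.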
